A study of Homo sapiens with 8 samples.

Results

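The genes described here are the expressed LINC RNAs of a colon cancer cell line, the long intergenic non-coding RNAs that carry a symbol of LINC and a number. They were chosen by their measured level, as the genes with such a symbol and a deposited value of at least 50 in at least 2 of the 8 libraries, which kept 154 of the 2097 LINC genes and of the 57736 genes listed in all. Of the 2097, 1572 had a value above 0 in some library and 351 passed the filter for testing. All 154 passed that filter, which is lower than the rule, and 15912 genes of every kind met the same level.

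RNA sequencing was done on LS174T, an established line from a human colon adenocarcinoma, in derivatives that carry the Tet repressor and switch on a short hairpin RNA when doxycycline is added. One derivative carries a hairpin against WiNTRLINC1, a long non-coding RNA, and the other a hairpin against ASCL2, a bHLH transcription factor of intestinal stem cells. The study asked which genes change when either transcript is lost. The groups are WiNTRLINC1-line cells grown 3 days with doxycycline at 1 ug/ml, untreated WiNTRLINC1-line cells, ASCL2-line cells grown 3 days with the same dose, and untreated ASCL2-line cells. Each group has 2 libraries. Both lines come from cells selected in culture, and whether each is 1 clone is not given. No group received doxycycline without carrying a hairpin, so the drug and the knockdown cannot be told apart within a line. Nothing says that the 2 libraries of a group came from separate cultures, so p-values measure the spread between these libraries, which may be technical. One label field gives the hairpin target the other way round from the sample titles in all 8 samples, and the groups here follow the titles. WiNTRLINC1 itself is not analysed here.

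A deposited value is a read count that had been scaled per library and rounded before deposit. Library totals lay between 21524463 and 22941231, and the 154 LINC RNAs made up 0.141% to 0.175% of them. ASCL2 had values of 805 and 697 with doxycycline against 2540 and 2034 untreated in the WiNTRLINC1 line, and of 532 and 586 against 2855 and 3373 in the ASCL2 line. It was therefore low in all 4 treated libraries of both lines and does not settle the conflict between the labels. All 12 colon epithelial marker genes checked were at 50 or more in every library. Summed values of fibroblast, immune and endothelial markers ran over libraries from 34 to 266, 47 to 89 and 13 to 46, each over 6 genes except endothelial, where 5 of 6 were found. In the WiNTRLINC1 line the fibroblast sums were 34 and 60 with doxycycline against 64 and 64 untreated, the immune sums 47 and 50 against 52 and 89, and the epithelial sums 130784 and 134570 against 157167 and 164719. In the ASCL2 line the fibroblast sums were 118 and 130 against 256 and 266, while the immune sums (47 and 79 against 68 and 76) and epithelial sums (189745 and 209679 against 207708 and 228753) overlapped. The part of these sums in the results was not tested.

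Long non-coding RNAs are transcripts without a recognised open reading frame. Those called intergenic lie between protein-coding genes. Some act in the nucleus on chromatin or on genes next to them, some act in the cytoplasm on proteins, mRNAs or microRNAs, and for many no role is known. They are usually less abundant and more restricted to particular cell types than mRNAs. The symbol does not guarantee any of this. In GENCODE release 29, 125 of the 154 were annotated as lincRNA, 12 as processed transcripts, 8 as antisense, 2 as bidirectional-promoter lncRNAs and 5 as pseudogenes of 3 kinds. The other 2, LINC02693 and LINC03040, were annotated there as protein-coding. In the same annotation 79 overlapped no other gene, 14 overlapped a protein-coding gene, and 47 shared exonic sequence with another gene, 35 of these with a gene on the opposite strand. The use of strand in counting is not given in the sources used here, so reads of such pairs cannot be told apart.

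Most of these RNAs were present at low levels. The mean value over the 8 libraries had a median of 88.1 and ran from 24.1 to 3776, with 84 RNAs under 100 and 6 at 1000 or more. Those 6 made up 39.1% of the summed mean values. Per kilobase of exon the highest mean values were 1660 for LINC02582, 1136 for LINC01106, 788 for LINC02672, 768 for LINC02303 and 634 for LINC00239. The next were LINC01088 at 522, LINC01123 at 406 and LINC00659 at 373, against a median of 36.9 over the 154. Of all 154, 66 were at 50 or more in all 8 libraries. At the edge of the rule, LINC01134 and LINC01801 entered with a second-highest value of 50 and LINC01237 with 51, while LINC01431, LINC01446 and LINC03078 stayed out with 49.

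**Figure D1:**
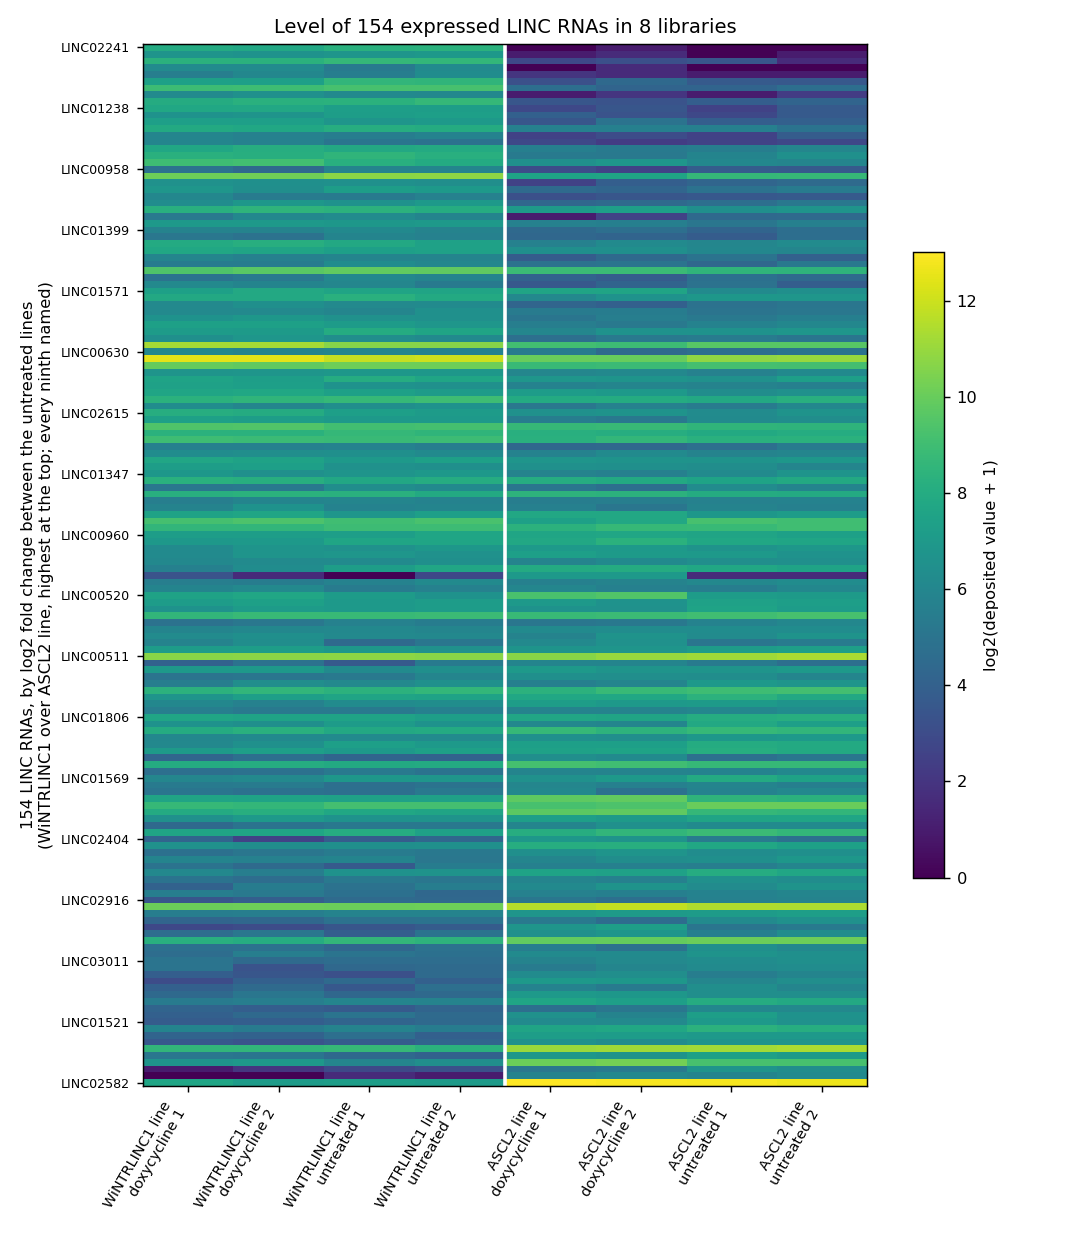
Each row is 1 of the 154 LINC RNAs and each column 1 library, with doxycycline left of untreated in each line. Colour is log2(deposited value + 1). Rows are ordered by the log2 fold change of untreated WiNTRLINC1-line over untreated ASCL2-line cells, and the top and bottom rows change colour at the white line between the cell lines, as for LINC02582 in the last row, which stood at 135 to 197 in the WiNTRLINC1 line and 6575 to 8270 in the ASCL2 line.

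Within this set, levels differed more between the 2 derivatives than with doxycycline. A principal component analysis of the 154 RNAs put 87.1% of the variance on a first component that separated the lines, and 7.31% on a second, on which the treated ASCL2-line libraries lay at -4.83 and -4.92 and the untreated ones at 5.19 and 4.92. Reaching 50 in both lines was seen for 88 RNAs, 32 reached it in the WiNTRLINC1 line alone and 34 in the ASCL2 line alone. The rule itself makes RNAs of the last 2 kinds differ between lines and so adds to the first component. The components and the counts that follow therefore describe the set and support nothing. Between the untreated lines, 121 of 154 differed at a limma Benjamini-Hochberg adjusted p under 0.05, or 78.6%, of which 59 were higher and 62 lower in the WiNTRLINC1 line. Among all 22100 genes tested the share was 55.2%, with 25.7% higher and 29.5% lower, and among the 15912 genes of the same level it was 65.7%. Of the 88 RNAs found in both lines, 28 were higher, 31 lower and 29 not called.

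LINC02582, an RNA first described as a target of the microRNA miR-200c in breast cancer cells, showed the most abundant of these differences. It had 149 and 135 in untreated WiNTRLINC1-line cells, against 7210 and 6575 in untreated ASCL2-line cells, a log2 fold change of -5.59 ± 0.13 (SE, n = 2 each, limma adjusted p = 2.69e-13). LINC03040, one of the 2 genes annotated as coding, had 417 and 320 against 2328 and 2661 (log2 fold change -2.77 ± 0.12, limma adjusted p = 9.03e-11). LINC01139, also known as LINK-A and described as a binding partner of kinases, had 2 and 1 against 57 and 74, so it was close to silent in one of 2 derivatives of a single cell line. LINC01842, LINC00941, LINC02593, LINC01023 and LINC00494 were also among the 8 largest differences in this direction, with log2 fold changes from -3.58 to -2.63.

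In the other direction, LINC02241 had 307 and 313 in untreated WiNTRLINC1-line cells and was listed at 0 in both untreated ASCL2-line libraries. LINC00355 had 40 and 73 against 0 and 0, and LINC00683 had 109 and 120 against 0 and 1. LINC01036 had 407 and 386 against 10 and 2, and LINC01164 had 373 and 362 against 12 and 11. These RNAs had high values in all 4 libraries of the WiNTRLINC1 line and low ones in all 4 of the ASCL2 line, whatever the treatment. LINC02086 had 591 and 595 against 17 and 25, a log2 fold change of 4.78, and LINC00462 and LINC02519 completed the 8 largest, at 4.90 and 4.46. For RNAs under the level of the rule in the other line, the rule favoured the difference. Their values are given as a description, with no test. LINC00683 and LINC02086 share exons with LINC01927 and LINC03057 on the opposite strand. LINC03057 had 455 and 482 against 311 and 317.

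**Figure D2:**
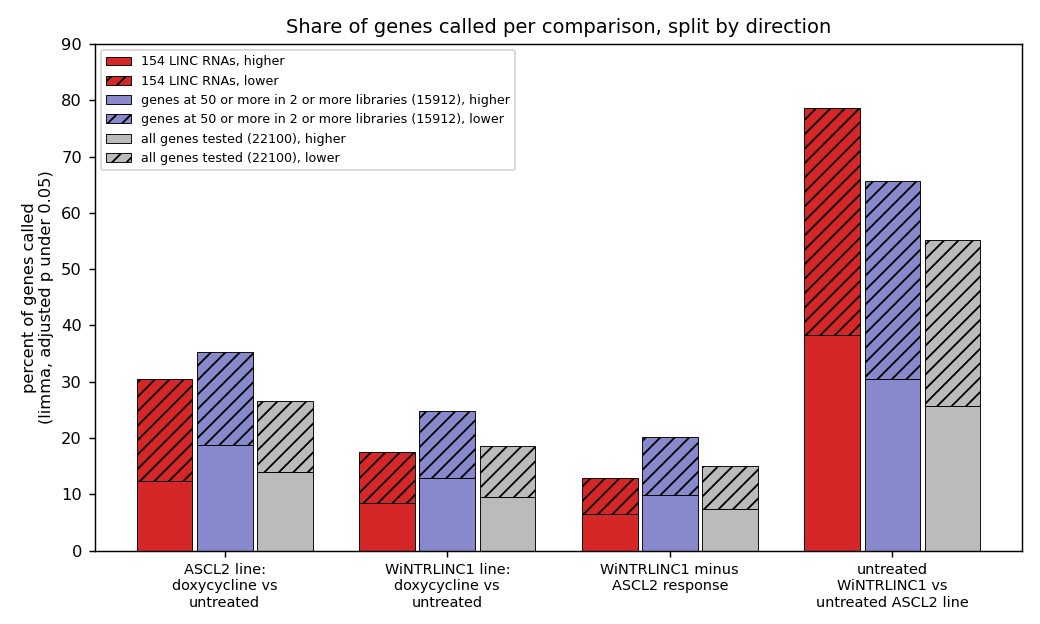
Bars give the percent of genes called by limma at an adjusted p under 0.05 in each of 4 comparisons, for the 154 LINC RNAs, for the 15912 genes of the same level and for all 22100 genes tested; plain parts are higher, hatched parts lower. In both doxycycline comparisons the LINC RNAs, at 30.5% and 17.5%, lay under the genes of the same level, at 35.2% and 24.8%.

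Doxycycline in the ASCL2 line changed 47 of the 154 LINC RNAs at an adjusted p under 0.05, or 30.5%, with 19 higher and 28 lower. The background share was 26.6% of all genes tested, 13.9% higher and 12.7% lower, and 35.2% of the genes of the same level, 18.8% higher and 16.4% lower. The count for the LINC RNAs thus lay between the 2 backgrounds. The median log2 fold change was -0.16 over the 154 and 0.01 over all genes tested. The rule touches these counts: 5 RNAs reached 50 in the treated ASCL2-line libraries alone and 4 of them were called higher, and 5 reached it in the untreated ones alone, of which 4 were called lower. For an RNA that entered the list through treated or untreated libraries alone, the values are given as a description, with no test. Among the 66 RNAs at 50 or more in every library, 14 were higher and 15 lower. The share of all genes at that stricter level was not taken, so these counts are a description. Leaving out any 1 of the 4 ASCL2-line libraries lowered the count of calls for the LINC RNAs, and for all genes tested as well. In a bulk library a lower value can mean fewer cells with the RNA or less of it per cell, which cannot be told apart.

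The largest fold change was that of LINC02154, an RNA from the X chromosome. It had 125 and 126 with doxycycline and 2 and 2 untreated in the ASCL2 line. In the WiNTRLINC1 line it had 9 and 2 with doxycycline and 0 and 6 untreated, so only the treated ASCL2-line libraries held it at a level above a few reads. The log2 fold change in the ASCL2 line was 5.40. Because the untreated values are near 0, that figure moves with the pseudocount, to 5.66 with 0.5 and 3.5 with 10. LINC02154 entered the list through these 2 libraries alone, so it had to differ.

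LINC00520, described in breast cancer cells as induced by Src, STAT3 and PI3K signalling, was the next. It had 618 and 726 with doxycycline against 147 and 135 untreated in the ASCL2 line, and the groups lay far apart (log2 fold change 2.24 ± 0.17, SE, n = 2 each, limma adjusted p = 4.12e-07). LINC00239 had 894 and 952 against 349 and 314 (1.48 ± 0.12, limma adjusted p = 6.18e-07), and LINC01559 had 851 and 917 against 412 and 372 (1.17 ± 0.12, limma adjusted p = 7.38e-06). LINC01571 had 195 and 196 against 74 and 89, a log2 fold change of 1.26 ± 0.18 (limma adjusted p = 0.000106). For these 4 the call held without any single library.

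LINC01929, LINC02404 and LINC00261 also reached 50 in the treated ASCL2-line libraries alone, so the rule favoured a higher treated value. LINC01929 had 111 and 158 with doxycycline against 32 and 39 untreated in the ASCL2 line, and LINC02404 had 116 and 101 against 42 and 27. LINC00261, also called DEANR1 and known from definitive endoderm, where it lies beside the gene of the transcription factor FOXA2, had 84 and 73 against 26 and 33. Nearly all of the longest LINC00261 transcript, 97.4%, is also part of another annotated gene on the same strand, so its reads may be divided.

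Among the falls in the ASCL2 line, LINC01128 had 166 and 219 with doxycycline against 599 and 516 untreated (log2 fold change -1.54 ± 0.14, SE, n = 2 each, limma adjusted p = 2.17e-06). LINC02303 had 188 and 196 against 399 and 420 (-1.09 ± 0.10, limma adjusted p = 1.22e-06). LINC02762 had 65 and 60 against 233 and 159 (-1.61 ± 0.23, limma adjusted p = 0.000112). In all 3 both treated values lay under both untreated ones. LINC01840 had the largest fitted fall, with 1 and 5 against 21 and 22, and its log2 fold change was -2.70 ± 0.48 with a pseudocount of 1 and -1.29 with 10 (limma adjusted p = 0.000711 and 0.00176). LINC01128 shares exons with LINC00115 and a further annotated gene, both on the opposite strand. LINC00115 had 50 and 33 against 55 and 49 and was not called.

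LINC00324 and LINC01389 reached 50 in the untreated ASCL2-line libraries alone, so the rule favoured a lower treated value. LINC00324 had 38 and 23 with doxycycline against 73 and 95 untreated, and LINC01389 had 25 and 34 against 64 and 66. LINC01342 had 5 and 14 against 18 and 22, and its call (-1.14, limma adjusted p = 0.0373) was lost without 7 of the 8 libraries, at adjusted p from 0.0566 to 0.352, holding only without treated library 2 of the ASCL2 line.

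**Figure D3:**
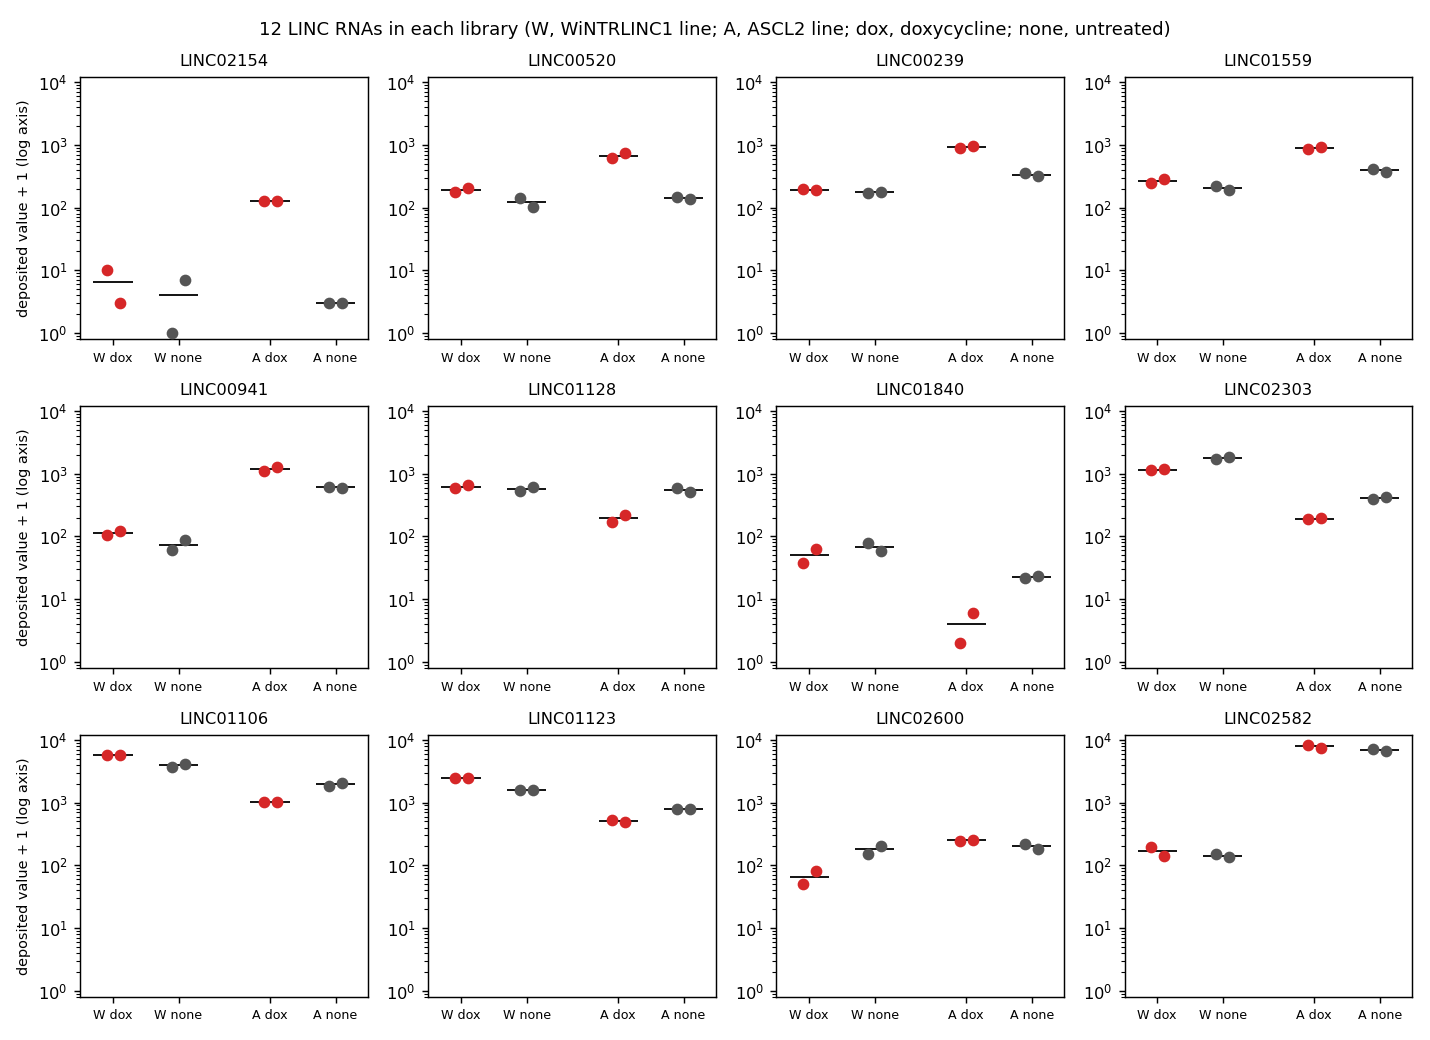
Each panel shows 1 LINC RNA; points are the 2 libraries of a group, lines the group mean, on a log axis of the deposited value plus 1, red for doxycycline and grey for untreated. LINC02154 stands above 100 only in treated ASCL2-line cells, and LINC02582 differs far more between lines than with treatment. LINC01106 and LINC01123 are lower with doxycycline in the ASCL2 line and higher with it in the WiNTRLINC1 line.

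In the WiNTRLINC1 line doxycycline changed 27 of the 154 LINC RNAs, or 17.5%, with 13 higher and 14 lower. The background was 18.6% of all genes tested, 9.54% higher and 9.03% lower, and 24.8% of the genes of the same level, 12.9% higher and 11.9% lower, so the share was near that of all genes. Of the RNAs counted, 4 reached 50 in the untreated libraries of this line alone and 1 of them was called lower, while 1 reached it in the treated ones alone and was not called. The median log2 fold change was -0.06 over the 154 and 0.01 over all genes tested. Called changes of at least 2-fold numbered 1 higher and 5 lower in this line and 9 higher and 11 lower in the ASCL2 line. Over all genes tested such calls were 1.07% higher and 1.63% lower in the WiNTRLINC1 line, and 1.67% higher and 2.76% lower in the ASCL2 line. In this line too, leaving out any 1 of its 4 libraries lowered the count of calls for the LINC RNAs and for all genes tested.

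LINC02600, LINC02303, LINC01978, LINC01106 and LINC01123 kept their call in this line whichever single library was left out. LINC02600 had 50 and 79 with doxycycline against 153 and 206 untreated (log2 fold change -1.48 ± 0.21, SE, n = 2 each, limma adjusted p = 0.00019). LINC02303 had 1137 and 1172 against 1706 and 1815 (-0.61 ± 0.10, limma adjusted p = 0.00036). LINC01978 had 509 and 531 against 290 and 248 (0.95 ± 0.16, limma adjusted p = 0.0007). LINC01106 and LINC01123 are given with the RNAs called in both lines. LINC01978 shares exons with LINC01979 on the opposite strand, which had 26 and 28 against 37 and 30 and was not called.

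The other named changes of this line each rested on particular libraries. LINC01311 had 176 and 163 with doxycycline against 97 and 90 untreated (log2 fold change 0.85, limma adjusted p = 0.00837, and 0.0677 and 0.0567 without treated library 1 or untreated library 2). LINC02615 had 273 and 254 against 159 and 138 (0.83, limma adjusted p = 0.00516, and 0.0506 and 0.0525 without the same 2 libraries). Their groups did not overlap. LINC01842 rose by 0.83, LINC02802 by 0.77 and LINC01315 by 0.68 on the log2 scale. Another annotated gene holds 96.9% of the longest LINC02802 transcript at 99.2% identity, so the reads of LINC02802 may be divided. LINC01842 lost its call without either treated library or untreated library 2 (adjusted p from 0.0802 to 0.164), LINC02802 without any 1 of the line's 4 libraries (0.0573 to 0.101), and LINC01315 without either treated library or untreated library 1 (0.0904 to 0.153).

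LINC00958, also known as BLACAT2 and studied in bladder cancer, reached 50 in the untreated libraries of this line alone, so the rule favoured a lower treated value. It had 29 and 21 with doxycycline against 56 and 58 untreated. Among the falls, LINC01164 had 165 and 163 against 373 and 362 (log2 fold change -1.16, limma adjusted p = 0.0248). It lost its call without any 1 of the line's 4 libraries, at adjusted p from 0.111 to 0.136, although its 4 values lay far apart by group. LINC01547 had 66 and 47 against 97 and 103 (-0.83, limma adjusted p = 0.00919, and 0.107 and 0.0604 without treated library 2 or untreated library 2). LINC00659, studied in colon cancer cells, had 123 and 131 against 201 and 202 (-0.66, limma adjusted p = 0.0136), a call lost without any 1 of the 4 (0.0531 to 0.0823). LINC02672, among the highest per kilobase, had 313 and 359 against 420 and 493 (-0.44, limma adjusted p = 0.0459), and its call was lost without any 1 of these 4 libraries or either treated ASCL2-line library (0.0591 to 0.275).

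**Figure D4:**
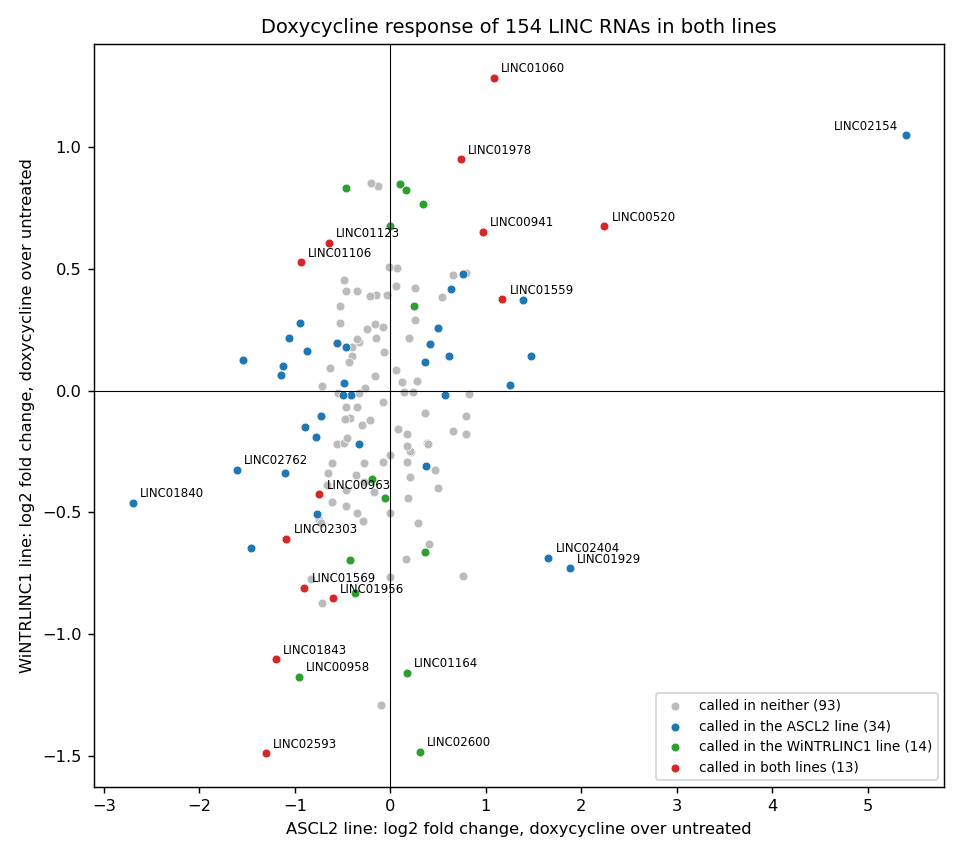
Each point is 1 of the 154 LINC RNAs, placed by its log2 fold change with doxycycline in the ASCL2 line (horizontal) and in the WiNTRLINC1 line (vertical); colour gives the comparison in which it was called, with the number of RNAs in brackets. Of the 13 called in both lines, 5 lie at the upper right, 6 at the lower left, and LINC01106 and LINC01123 at the upper left.

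The 2 doxycycline comparisons set different libraries against each other. They share 1 estimate of the spread of each gene from all 8 libraries, so their calls are not fully independent. In both, 13 RNAs were called, which is 27.7% of those called in the ASCL2 line and 48.1% of those called in the WiNTRLINC1 line. Over all genes tested 2005 were called in both, or 34.1% and 48.9% of the same lists, and over the genes of the same level 1990, or 35.6% and 50.3%, so the overlap was near the background. Those higher in both numbered 5: LINC00520, LINC01559, LINC00941, LINC01978 and LINC01060. LINC00941, reported to act through SMAD4 in colorectal cancer metastasis, had 105 and 121 with doxycycline against 59 and 86 untreated in the WiNTRLINC1 line, and 1106 and 1263 against 608 and 601 in the ASCL2 line. Its exons overlap other annotated genes on the same strand, so its reads may be divided. LINC00520 had 178 and 205 against 142 and 100 in the WiNTRLINC1 line, and LINC01559 had 248 and 281 against 217 and 190. The WiNTRLINC1-line call was lost without treated library 2 or untreated library 1 for LINC00941 (adjusted p 0.106 and 0.13) and without treated library 2 or untreated library 2 for LINC00520 (0.117 and 0.145). That of LINC01559 had a limma adjusted p of 0.0465 and was lost without any 1 of that line's libraries or either treated ASCL2-line library (0.0515 to 0.271), and it was 0.0524 with the replicate number as a block. In the ASCL2 line LINC01978 had 93 and 114 against 63 and 60, and an adjusted p of 0.0511 without treated library 2. LINC01060 reached 50 in treated libraries alone, so the rule favoured its direction. It had 55 and 82 against 22 and 33 in the WiNTRLINC1 line, and 68 and 94 against 33 and 42 in the ASCL2 line.

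Those lower in both numbered 6: LINC02303, LINC00963, LINC01843, LINC01956, LINC01569 and LINC02593. LINC00963, described in prostate cancer, had 420 and 397 with doxycycline against 550 and 548 untreated in the WiNTRLINC1 line, and 591 and 670 against 1069 and 1042 in the ASCL2 line. LINC01843 had 34 and 36 against 82 and 71 in the WiNTRLINC1 line, and 32 and 25 against 76 and 58 in the ASCL2 line, and it reached 50 in untreated libraries alone, so the rule favoured its direction. In the WiNTRLINC1 line the adjusted p was 0.0647 for LINC00963 without treated library 2. LINC02303 kept both calls without any single library. LINC01956 had 67 and 92 against 159 and 128 in the WiNTRLINC1 line (lost without treated library 1 or untreated library 1, at 0.0628 and 0.0647), and 160 and 163 against 255 and 237 in the ASCL2 line (lost without any 1 of its libraries, at 0.073 to 0.131). LINC01569 had 62 and 68 against 117 and 112 in the WiNTRLINC1 line (lost without any 1 of its libraries, at 0.0525 to 0.0885), and 94 and 131 against 244 and 177 in the ASCL2 line (lost without treated library 1 or untreated library 1, at 0.0823 and 0.0837). LINC02593 entered through the untreated ASCL2-line libraries alone, with 35 and 40 against 106 and 83 in that line. It had 1 and 3 against 6 and 8 in the WiNTRLINC1 line, too few reads for a fold change that holds under another pseudocount (-1.49 with 1 and -0.51 with 10, limma adjusted p = 0.0267 and 0.168), and the call was also lost without treated library 1 or either untreated library (0.0577 to 0.174).

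LINC01106 and LINC01123 were the 2 RNAs called in opposite directions. LINC01106, reported in colorectal cancer, had 5651 and 5712 with doxycycline against 3745 and 4140 untreated in the WiNTRLINC1 line, and 1040 and 1008 against 1858 and 2065 in the ASCL2 line. LINC01123, described as a MYC target in lung cancer, had 2465 and 2433 against 1616 and 1598 in the WiNTRLINC1 line, and 529 and 484 against 797 and 789 in the ASCL2 line. No group overlapped another of the same line. The log2 fold changes in the WiNTRLINC1 line were 0.53 ± 0.08 for LINC01106 and 0.61 ± 0.08 for LINC01123 (SE, n = 2 each, limma adjusted p = 0.000282 and 0.000115). Those of the ASCL2 line were -0.94 ± 0.08 and -0.65 ± 0.08 (limma adjusted p = 1.01e-06 and 4.64e-05). All 4 calls held without any single library.

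These 2 RNAs are near copies of each other, both from chromosome 2, so they are not independent observations. BLAST aligned 2256 of the 2443 bases of the longest LINC01106 transcript to LINC01123 at 99.5% identity. Their RefSeq promoter windows of 300 bases on GRCh38.p14, 250 before and 50 after the annotated start, are shown because they hold the same run of 289 bases at an offset of 11. Capitals mark the bases outside that shared run, which is identical in both. Reads from such sequence may be counted for either gene, so the share of each is uncertain. Each also has a ZBTB45 pseudogene on the opposite strand of its exons.
LINC01106, chr2:110384487-110384786, minus strand: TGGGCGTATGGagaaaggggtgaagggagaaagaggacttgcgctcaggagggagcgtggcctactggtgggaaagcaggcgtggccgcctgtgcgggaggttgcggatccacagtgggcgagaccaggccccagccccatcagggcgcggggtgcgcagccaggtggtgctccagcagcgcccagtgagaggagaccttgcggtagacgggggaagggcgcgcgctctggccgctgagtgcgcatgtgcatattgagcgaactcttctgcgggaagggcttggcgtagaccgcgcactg
LINC01123, chr2:109986730-109987029, plus strand: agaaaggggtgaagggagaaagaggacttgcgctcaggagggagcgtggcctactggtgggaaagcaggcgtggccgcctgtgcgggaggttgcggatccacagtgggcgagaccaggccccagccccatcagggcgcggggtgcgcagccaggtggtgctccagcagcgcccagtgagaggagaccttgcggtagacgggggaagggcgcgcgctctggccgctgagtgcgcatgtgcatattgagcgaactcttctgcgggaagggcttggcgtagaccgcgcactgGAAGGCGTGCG

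The difference between the 2 responses, WiNTRLINC1 line minus ASCL2 line, uses the same 8 libraries as the comparisons above. It was called for 20 of the 154 RNAs, or 13.0%, with 10 higher and 10 lower. The background was 15.0% of all genes tested, 7.39% higher and 7.60% lower, and 20.2% of the genes of the same level, 9.93% higher and 10.2% lower. Of the lower ones, LINC02154, LINC01929 and LINC02404 entered the list through the treated ASCL2-line libraries alone. Over all genes tested, leaving out any single library lowered the count of calls. For the LINC RNAs the count was lower without untreated library 2 of the WiNTRLINC1 line, and leaving out no other library raised it. Among the differences that held without any single library were those of LINC00520 at -1.56 ± 0.24, LINC01106 at 1.46 ± 0.11 and LINC01128 at 1.67 ± 0.20 (log2, SE, limma adjusted p = 0.00047, 1.14e-06 and 5.37e-05). LINC01128 had 581 and 658 with doxycycline against 522 and 613 untreated in the WiNTRLINC1 line, so its groups there overlapped, and the fall was seen in the ASCL2 line. LINC02600 was the reverse case, with 243 and 253 against 218 and 184 in the ASCL2 line and a difference of -1.79 ± 0.30 (limma adjusted p = 0.000895).

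Because many intergenic RNAs are described as acting on or sharing control with adjacent genes, the nearest protein-coding gene on each side was set beside each RNA. In the ASCL2 line 18 of the 19 RNAs that rose had 31 tested neighbours, of which 9 rose and 9 fell, and 27 of the 28 that fell had 45, of which 9 fell and 8 rose. In the WiNTRLINC1 line 12 of the 13 RNAs that rose had 20 tested neighbours, of which 6 rose and 2 fell, and the 14 that fell had 26, of which 5 fell and 3 rose. Counted in either direction, 58.1% of the neighbours of RNAs that rose in the ASCL2 line and 37.8% of those of RNAs that fell were called, beside 39.8% of the 166 neighbours of RNAs not called. The same shares in the WiNTRLINC1 line were 40% and 30.8%, beside 27% of 196. These are counts without a test, and they include RNAs whose direction the rule favoured. Distances are not printed because the annotation is not of the build that the submitters name.

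Some pairs moved together in the ASCL2 line. For LINC00261 and LINC01929 among them, the rule favoured the rise of the RNA. EPHB3, an Eph receptor of cells at the crypt base and a Wnt target, is the neighbour of LINC01840 and had 4048 and 4019 with doxycycline against 11343 and 10518 untreated (log2 fold change -1.44, limma adjusted p = 1.09e-08). DIO3, an enzyme that inactivates thyroid hormone, lies beside LINC00239 and had 313 and 359 against 99 and 68 (2.02, limma adjusted p = 0.00262). PPP2R5C, a regulatory subunit of the phosphatase PP2A on the other side of LINC00239, had 9143 and 8997 against 6859 and 7016 (0.39, limma adjusted p = 0.000802). FOXA2 beside LINC00261 had 765 and 793 against 544 and 537 (0.53, limma adjusted p = 0.00155). CCDC68 beside LINC01929 had 1560 and 1524 against 760 and 885 (0.91, limma adjusted p = 1.75e-05). CCDC68 also rose in the WiNTRLINC1 line, with 364 and 399 against 247 and 245, while LINC01929 had 6 and 7 against 10 and 13 and was not called.

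Other pairs moved together in both lines, except ADRA2C and LINC02600, which did so in the WiNTRLINC1 line alone. The WiNTRLINC1-line calls of LINC01559, LINC00941 and LINC01843 were each lost without some single libraries. For LINC01843 the rule also favoured the fall of the RNA. EMP1, an epithelial membrane protein gene beside LINC01559, had 188 and 246 with doxycycline against 56 and 47 untreated in the WiNTRLINC1 line, and 734 and 694 against 343 and 330 in the ASCL2 line (log2 fold changes 2.05 and 1.08, limma adjusted p = 5.46e-07 and 0.000134). CAPRIN2, an RNA-binding protein gene beside LINC00941, had 877 and 1036 against 567 and 676 in the WiNTRLINC1 line, and 1422 and 1421 against 742 and 926 in the ASCL2 line (0.62 and 0.78, limma adjusted p = 0.0021 and 0.000254). JADE2, a PHD-finger protein gene beside LINC01843, had 1359 and 1259 against 2104 and 2233 in the WiNTRLINC1 line, and 2188 and 1908 against 2945 and 2897 in the ASCL2 line (-0.73 and -0.52, limma adjusted p = 2.56e-05 and 0.0004). ADRA2C, the alpha-2C adrenergic receptor gene beside LINC02600, had 689 and 637 against 1499 and 1199 in the WiNTRLINC1 line, where LINC02600 fell (-1.02, limma adjusted p = 4.81e-06). It had 2633 and 2594 against 1896 and 1924 in the ASCL2 line and rose by 0.45 (limma adjusted p = 0.00338), while LINC02600 was not called there.

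Opposite movement occurred as well. TOX3, an HMG-box gene beside LINC01571, had 25 and 18 with doxycycline against 57 and 36 untreated in the ASCL2 line (log2 fold change -1.06, limma adjusted p = 0.00528), where LINC01571 rose. MALL, a membrane-raft protein gene beside LINC01123, had 1056 and 1205 against 425 and 467 in the ASCL2 line, where LINC01123 fell, and 128 and 152 against 59 and 89 in the WiNTRLINC1 line, where it rose (1.34 and 0.94, limma adjusted p = 5.53e-05 and 0.00159). Beside LINC00963, which fell in both lines, IER5L had 1952 and 2090 against 1128 and 1017 in the ASCL2 line (0.92, limma adjusted p = 1.78e-05). Chosen after their values were seen, LINC00511 and LINC02038 lie beside the crypt transcription factor genes SOX9 and HES1. In the ASCL2 line LINC00511 had 1649 and 2052 against 2293 and 2614 and SOX9 11442 and 11902 against 14800 and 14193, and both fell (-0.41 and -0.31, limma adjusted p = 0.00751 and 0.00281). LINC02038 had 145 and 131 against 82 and 95 there and HES1 988 and 1010 against 1307 and 1273 (0.64 and -0.37, limma adjusted p = 0.0131 and 0.00972). Without a library the adjusted p was 0.124 (treated 1) and 0.0872 (untreated 2) for LINC00511, and 0.0942 (treated 1) and 0.0863 (untreated 1) for LINC02038.

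**Figure D5:**
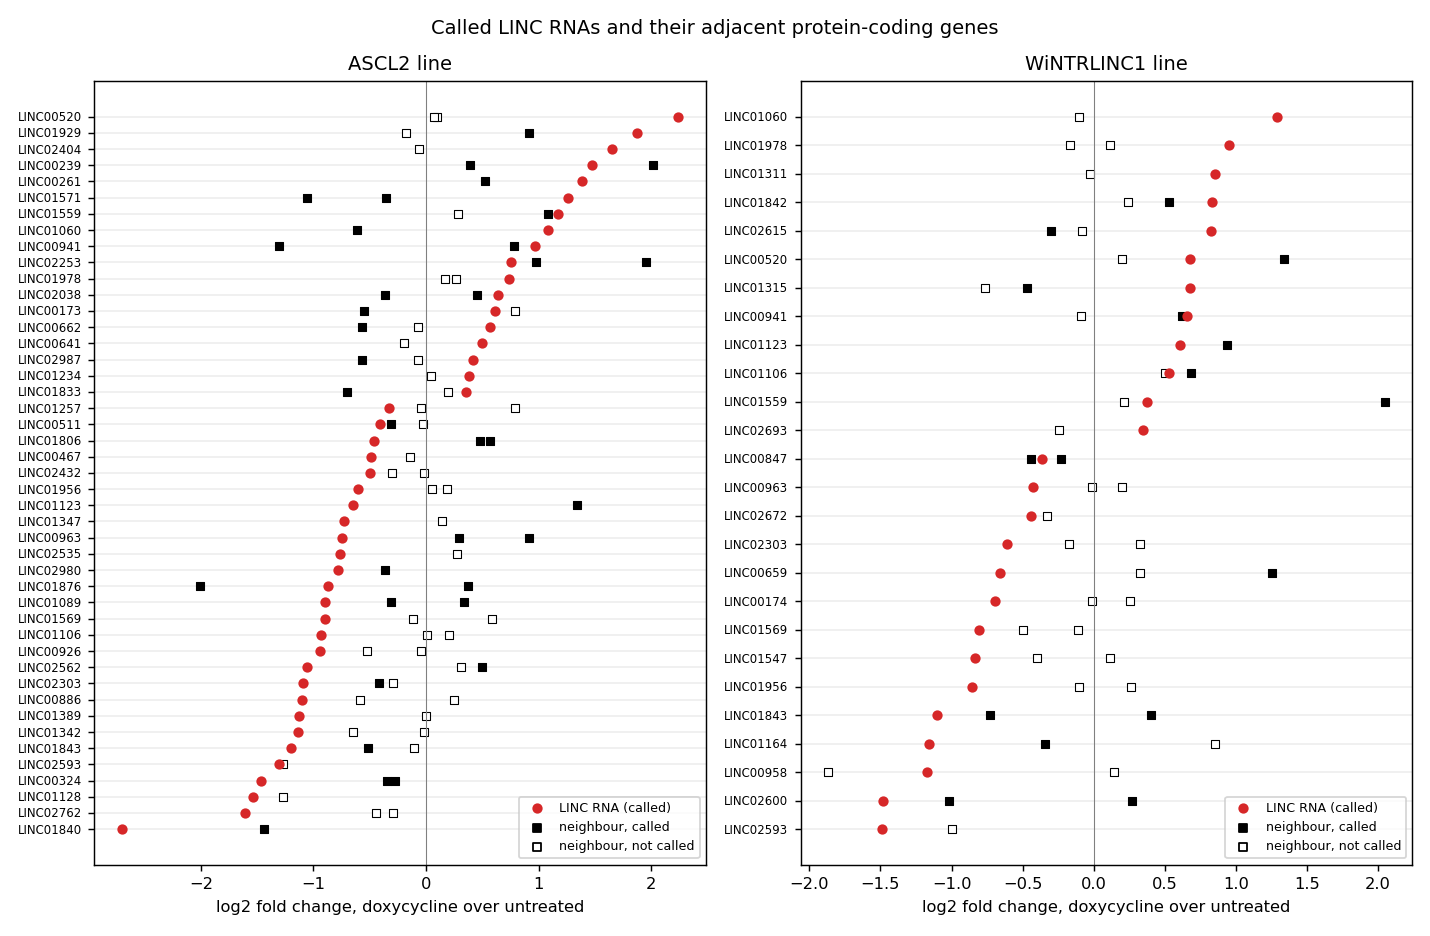
Each row is a LINC RNA called with doxycycline in the ASCL2 line (left) or the WiNTRLINC1 line (right) that has a tested protein-coding neighbour; the red circle is the log2 fold change of the RNA and squares those of its neighbours, filled where called. Filled squares lie on both sides of 0 among RNAs that rose and among those that fell, with EPHB3 at -1.44 beside LINC01840 in the lowest row on the left.

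RefSeq promoter windows on GRCh38.p14 were matched for 100 of the 154 RNAs. The letters CTTTGA, the core of sites bound by the TCF/LEF factors of the Wnt pathway, occurred on either strand in 5 of these, or 5.0%, against 12.9% of all 35116 windows in the table. The letters CAGCTG, an E-box of the kind that ASCL-family factors bind, occurred in 22, or 22%, against 17.9%. Median GC content was 59.3% against 58.7%. Of the RNAs that rose in the ASCL2 line, 2 of the 14 windows held CAGCTG, against 3 of 19 of those that fell and 17 of 67 of those not called. CTTTGA was held by 2 of the 14, 1 of the 19 and 2 of the 67. A match is only a match of letters in this window. Windows of 3 RNAs that changed in the ASCL2 line are shown for their place in these counts: LINC01840, which fell together with EPHB3, and LINC02404 and LINC01929, which are the 2 of those 14 with CTTTGA. These last 2 entered the list through the treated ASCL2-line libraries alone, so the rule favoured their place among the 14. Capitals mark CTTTGA, or TCAAAG where it is on the other strand, and CAGCTG.
LINC01840, chr3:184556869-184557168, minus strand: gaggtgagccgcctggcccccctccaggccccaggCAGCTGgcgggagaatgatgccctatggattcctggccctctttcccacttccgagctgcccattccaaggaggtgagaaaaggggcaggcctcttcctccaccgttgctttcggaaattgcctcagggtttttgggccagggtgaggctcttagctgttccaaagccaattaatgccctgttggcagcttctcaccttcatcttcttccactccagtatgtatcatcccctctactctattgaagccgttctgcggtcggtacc
LINC02404, chr12:91876878-91877177, plus strand: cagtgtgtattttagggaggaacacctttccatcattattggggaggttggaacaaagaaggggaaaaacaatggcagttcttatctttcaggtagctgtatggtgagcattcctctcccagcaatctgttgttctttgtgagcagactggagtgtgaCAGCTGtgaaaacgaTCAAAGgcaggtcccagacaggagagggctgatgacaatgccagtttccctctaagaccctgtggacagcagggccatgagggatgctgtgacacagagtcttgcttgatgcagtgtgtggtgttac
LINC01929, chr18:55124257-55124556, minus strand: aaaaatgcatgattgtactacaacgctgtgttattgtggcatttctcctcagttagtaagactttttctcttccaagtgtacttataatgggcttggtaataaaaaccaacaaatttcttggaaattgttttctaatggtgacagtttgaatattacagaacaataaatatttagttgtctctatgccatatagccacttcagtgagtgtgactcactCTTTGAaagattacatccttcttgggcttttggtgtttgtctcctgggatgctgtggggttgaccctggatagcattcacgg

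A list of 32 other well-known long non-coding RNAs, chosen for their names, gives the setting. Of these, 24 were tested. With doxycycline 6 rose, 5 fell and 13 were not called in the ASCL2 line. The same counts for the WiNTRLINC1 line were 2, 3 and 19. For comparison, 26.6% of all genes tested were called in the former line and 18.6% in the latter. Among genes at the level of the LINC RNAs these shares were 35.2% and 24.8%. The counts of the named list were not tested against either background, so they are a description. UCA1, first described in urothelial cancer, had 4618 and 4599 with doxycycline against 2360 and 1987 untreated in the ASCL2 line (log2 fold change 1.09, limma adjusted p = 1.6e-05), and 44 and 45 against 43 and 37 in the WiNTRLINC1 line. NORAD, which binds PUMILIO proteins, rose in the ASCL2 line by 0.50 and MIAT fell by 1.39 (limma adjusted p = 0.000164 and 0.000544). NEAT1, the scaffold of paraspeckles, had 19350 and 19359 against 29485 and 30172 in the WiNTRLINC1 line and 5833 and 6125 against 7124 and 7821 in the ASCL2 line, and fell in both. H19, an imprinted RNA, fell in both by 0.49 and 0.62, and CYTOR rose in both by 1.29 and 0.74, each pair given for the WiNTRLINC1 line and then the ASCL2 line (limma adjusted p = 0.00514, 0.000676, 0.000358 and 0.0134).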

How the data were processed

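RNA was isolated with Trizol and sequenced on the Ion Proton, per the labels' protocols. Each deposited score is a whole number: the spacing of the values shows a read count that the authors scaled per library and then rounded. The submitters' processing notes name TopHat2 2.0.9, cutadapt, DESeq and Cufflinks, and the builds hg19, GRCh37 and mm9. Which counter was run, and whether it used strand, is not stated there. Of 57736 identifiers, 39501 matched a symbol. GENCODE release 29 gave gene types, exon lengths and neighbours, and RefSeq the promoters.

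The 22100 genes reaching 10 in 2 or more libraries entered 1 limma model (limma 3.58.1, R 4.3.3) of log2(value + 1), with a trended prior, 4 groups and 8 libraries (4 residual, 10.5 prior degrees of freedom). Fold changes carry that pseudocount, so changes of low genes are understated. Calls used Benjamini-Hochberg adjustment over all 22100 at 0.05. BLAST 2.17.0+ sought copies among annotated transcripts, at 95% identity or more over at least 200 bases. In 10 of the 154 RNAs such a copy covered at least 50% of the longest transcript. Depth and 2 libraries per group limit precision.

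The RNAs, gene lists and tests were chosen with earlier results of these data known. Named RNAs were, per comparison, the 8 per direction with the largest change among those called, those called in both doxycycline comparisons, and the 8 highest per kilobase. Those reaching 50 in 1 line alone are given by number. Alternatives were other pseudocounts, filters and scalings, no trend, a replicate block, each line alone and each library left out.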

Additional observations from a re-analysis of the deposited data

Results flagged for a closer look

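For 20 of the 154 LINC RNAs the doxycycline response differed between the lines by a limma test of the difference itself (Benjamini-Hochberg adjusted p under 0.05). The values below are log2 differences, WiNTRLINC1-line response minus ASCL2-line response, each with the 2 responses in the same order. LINC02154, LINC01929 and LINC02404 entered the list through the treated ASCL2-line libraries alone, so their differences were favoured by the choice of RNAs and are values without support from the test.

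Rises in the ASCL2 line that were smaller or not seen in the WiNTRLINC1 line gave negative differences. They were -4.35 for LINC02154 (1.05 and 5.40), -2.61 for LINC01929 (-0.73 and 1.88), -2.34 for LINC02404 (-0.69 and 1.66), -1.56 for LINC00520 (0.68 and 2.24) and -1.33 for LINC00239 (0.14 and 1.48). LINC01571 gave -1.23 (0.03 and 1.26), LINC01559 -0.80 (0.38 and 1.17) and LINC01234 -0.69 (-0.31 and 0.38). LINC02600 at -1.79 (-1.48 and 0.31) and LINC00659 at -1.02 (-0.66 and 0.36) were called lower in the WiNTRLINC1 line and not called in the ASCL2 line. The difference was lost without treated library 2 of the ASCL2 line for LINC00659 (adjusted p = 0.0616).

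Positive differences were 2.24 for LINC01840 (-0.46 and -2.70), 1.67 for LINC01128 (0.13 and -1.54), 1.46 for LINC01106 (0.53 and -0.94), 1.29 for LINC01842 (0.83 and -0.46) and 1.28 for LINC02762 (-0.33 and -1.61). LINC01123 gave 1.25 (0.61 and -0.65), LINC00926 1.23 (0.28 and -0.94), LINC01588 0.94 (0.46 and -0.49), LINC01806 0.65 (0.18 and -0.47) and LINC02303 0.48 (-0.61 and -1.09). Those of LINC01128, LINC01106, LINC01123 and LINC00926 held without any single library. The others were lost without at least 1 of several libraries, at adjusted p of 0.0728 to 0.157 for LINC01840, 0.0538 to 0.0993 for LINC01842, 0.0544 to 0.0779 for LINC02762, 0.052 to 0.0729 for LINC01588, 0.0766 to 0.144 for LINC01806 and 0.0619 to 0.0885 for LINC02303.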

How the results depend on the processing

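Without the filter on low values, 25 LINC RNAs were called in the ASCL2 line, 11 in the WiNTRLINC1 line and 13 for the difference, and without the mean-variance trend 31, 14 and 10. Calls over all genes fell as well, from 5884, 4104 and 3314 in the reported fit. They were 3926, 2395 and 1914 of 43363 without the filter, and 3410, 1873 and 1313 of 22100 without the trend. With each line fitted alone the WiNTRLINC1 line gave 15 LINC calls and 2713 over all genes tested. Leaving out 1 library at a time gave 27 to 45 in the ASCL2 line, 12 to 27 in the WiNTRLINC1 line, 13 to 20 for the difference and 107 to 121 between the untreated lines. Every other alternative listed under the processing kept these counts within 1.5 times the reported ones, and the count between the untreated lines stayed within that range under all of them. The cause was not tested.

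The replicate block gave 47, 26, 20 and 119 calls in the ASCL2 line, the WiNTRLINC1 line, the difference and the untreated lines. Deviations of same-numbered libraries correlated at -0.12 to 0.26 over 14930 genes. The highest value was that of treated and untreated WiNTRLINC1-line libraries, and the lowest that of treated and untreated ASCL2-line libraries. The numbers were not taken to pair the libraries, although those of the WiNTRLINC1 line deviated together in part. Crossed numbers in the ASCL2 line, an alternative chosen after seeing the data, gave 47, 28, 20 and 121. The block ended the WiNTRLINC1-line call of LINC01559 (limma adjusted p = 0.0524) and the call of LINC00261 between the untreated lines (0.0548).

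Of 120 calls of single RNAs followed, none changed sign under any alternative, 69 held under all that could be run and 51 were lost under at least 1.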

Other observations

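The count that follows is a description, as the matching share of all genes tested was not taken. In 18 of the 154 LINC RNAs no difference was called in any of the 4 comparisons. The most abundant was LINC00339, with 381 and 380 in treated and 490 and 478 in untreated WiNTRLINC1-line cells, and 329 and 426 in treated and 437 and 527 in untreated ASCL2-line cells. LINC00205 and LINC00960 followed, with mean values of 251.6 and 176.5 over the 8 libraries.

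LINC00662 and LINC02987 are members whose exons overlap on opposite strands. In the ASCL2 line LINC00662 had 275 and 288 with doxycycline against 214 and 167 untreated, and LINC02987 had 343 and 324 against 253 and 245. Their levels differed between the untreated lines for LINC00662 alone, at 88 and 93 in the WiNTRLINC1 line against 214 and 167 in the ASCL2 line (log2 fold change -1.05, limma adjusted p = 0.000122). LINC02987 had 303 and 239 against 253 and 245 (limma adjusted p = 0.512). Whether this contrast between the 2 RNAs is itself larger than the spread was not tested.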
